A study of Mus musculus with 8 samples.

Results

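The 10 genes described here serve MHC class I antigen presentation and were taken as a list from the 32502 genes of the digital expression tables: H2-K1, H2-D1 and the non-classical H2-T23 and H2-Q7 (heavy chains), B2m (the light chain), Tap1, Tap2 and Tapbp (peptide transport and loading) and Psmb8 and Psmb9 (immunoproteasome subunits). All 10 were listed in the tables and were detected in at least 30 of the 5698 cells kept. The study profiled single cells of mouse brain by Drop-seq, a droplet method that counts unique molecular identifiers (UMIs) at the 3′ ends of transcripts, in 8 libraries, 1 for each genotype and condition. The genotypes were C57BL/6 (C57BL/6N in the study's methods) wild type (WT, Irg1/Acod1 +/+) and knock-out (KO, Irg1/Acod1 -/-) mice, the latter carrying a cassette inserted after exon 3 and before exon 5 of Acod1, the gene of the itaconate-producing enzyme of activated macrophages. The conditions were naive brain, with 2 mice named in each library title, and brain implanted with 500 cells of GL261, a glioma line of the same strain, taken from 1 mouse each at an early (5-10 mm3), intermediate (20-25 mm3) or late (30-35 mm3) tumour volume. The tumour cells were the same line in both hosts, so that the genotype of a library was that of the host tissue alone. Ages were not given in the labels, and the naive libraries had no sham implantation. According to the study's methods the WT early and the KO intermediate mouse were females and the other tumour-bearing mice males, so that sex, mouse and library cannot be told apart from stage within a genotype.

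MHC class I molecules carry peptides from proteins made inside a cell to its surface, where CD8 T cells read them. The proteasome cuts the proteins, the Tap1-Tap2 transporter moves the peptides into the endoplasmic reticulum, and tapasin (Tapbp) holds the empty heavy chain with B2m at the transporter until a peptide is bound. Interferons raise the genes of this pathway and exchange the catalytic proteasome subunits Psmb5, Psmb6 and Psmb7 for Psmb8, Psmb9 and Psmb10. In healthy brain, neurons and oligodendrocytes are known for little class I, and endothelial cells and microglia for more.

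The tables held 2885345 to 9950713 UMIs per library, and the kept cells, 454 to 1000 per library, had a median of 2607.5 to 5642.5 UMIs. Cells were clustered and each cluster was named from fixed marker lists. The names are likenesses to a type and are written without the suffix; by their markers the microglia of tumour-bearing brain match the study's TAM I and the macrophages its TAM II. The class of tumour cells (3385 cells, led by Col9a1, Col3a1 and H19) was found in tumour-bearing libraries alone. It was followed by macrophages (414, Lyz2, Arg1 and Il1b), microglia (376, C1qb, Siglech and P2ry12), oligodendrocytes (366, Ermn and Mal), astrocytes (292, Gja1 and Slc1a3), endothelial cells (282, Slco1a4 and Cldn5) and lymphocytes (194, Gzma, Gzmb and Nkg7). All markers of each of these lists were detected in their own class, but 1471 of the 3385 tumour cells held more UMIs of another list than of the weakly expressed tumour list. No oligodendrocyte, 3 microglia and 18 endothelial cells did so. A total of 9 kept cells shared a barcode with a cell of another library. Acod1 had 0 UMIs in both naive libraries, 161, 21 and 10 in the WT early, intermediate and late libraries, and 33, 26 and 41 in the KO libraries of these stages. Where these reads lie relative to the inserted cassette was not examined, so that the counts in KO libraries remain unexplained. The paper found no detectable Acod1 by qPCR in cultured bone marrow-derived macrophages of KO mice. The counts here were not used as a check of the genotype labels.

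The WT intermediate and WT late libraries stood apart from the other tumour-bearing libraries. They held the fewest lymphocytes, 0.7% and 0.562% of kept cells against 4.36% to 9.56% in the other 4, and the fewest macrophages, 1.6% and 3.23% against 9.87% to 14.8%. They also had the lowest summed level of the 10 genes in tumour cells, microglia, macrophages, oligodendrocytes and oligodendrocyte precursors. Results that rest on them are given with and without them, an alternative that was chosen after seeing the data.

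Of the 10 genes, 9 lie on mouse chromosome 17 and B2m lies on chromosome 2 (GRCm38, GENCODE M21). The heavy chain genes H2-K1 (chr17:33996017-34000347, minus strand), H2-D1 (chr17:35262730-35267499), H2-Q7 (chr17:35439155-35443773) and H2-T23 (chr17:36029773-36032855, minus strand) are spread over the complex. Psmb9 (chr17:34181987-34187764, minus strand), Tap1 (chr17:34187553-34197225), Psmb8 (chr17:34197721-34201454) and Tap2 (chr17:34203527-34216321) are neighbours. Upstream windows of 250 bases were available from RefSeq (GRCm38.p6) for 9 of the 10. The windows of H2-K1, H2-D1 and H2-Q7 shared 4 runs of at least 12 identical bases, 65 bases in all or 26.0% of the window. Those of H2-K1 and H2-Q7 are shown with the shared runs in capitals, 5′ to 3′ on the strand of the gene. Whether the shared runs have a part in the levels of these genes was not tested.
H2-K1, chr17:34000348-34000597, minus strand: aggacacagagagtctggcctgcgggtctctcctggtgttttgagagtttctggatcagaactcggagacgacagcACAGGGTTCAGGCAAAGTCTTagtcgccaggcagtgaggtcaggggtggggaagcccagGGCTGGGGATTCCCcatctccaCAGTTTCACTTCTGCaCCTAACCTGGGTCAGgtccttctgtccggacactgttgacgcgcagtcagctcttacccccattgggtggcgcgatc
H2-Q7, chr17:35438905-35439154, plus strand: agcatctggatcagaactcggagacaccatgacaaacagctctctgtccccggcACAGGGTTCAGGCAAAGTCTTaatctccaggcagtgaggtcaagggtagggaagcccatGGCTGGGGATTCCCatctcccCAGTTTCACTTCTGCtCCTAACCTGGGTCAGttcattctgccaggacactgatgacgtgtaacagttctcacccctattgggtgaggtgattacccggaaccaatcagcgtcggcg
The B2m window, for the light chain that all of these heavy chains need, is shown with its matches to GAAANNGAA, the core letters of an interferon-stimulated response element, and to TGACG, the core of a cAMP response element, in capitals.
B2m, chr2:122147437-122147686, plus strand: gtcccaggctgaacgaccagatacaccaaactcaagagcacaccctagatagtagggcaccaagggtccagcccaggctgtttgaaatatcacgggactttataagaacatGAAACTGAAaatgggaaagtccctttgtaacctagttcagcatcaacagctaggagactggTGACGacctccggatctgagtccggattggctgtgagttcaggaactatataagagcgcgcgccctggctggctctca
Counted on both strands, GAAANNGAA occurred in windows of 2 of the 9 genes (B2m and H2-T23) and in 7.12% of all 32817 windows, and TGACG in windows of 6 (B2m, H2-K1, H2-D1, H2-Q7, Psmb9 and Tap1) and in 17.7% of all. The windows of Psmb9 and Tap1 overlap over 225 bases, and their TGACG match is the same site. Those of H2-K1, H2-D1 and H2-Q7 resemble each other, so that the 6 are not independent occurrences. GGGNNNTCC, letters of an NF-kappa-B site, occurred for 3 genes (H2-K1, H2-D1 and H2-Q7, within a shared run) and in 15.2% of all windows. TTCNNNGAA, letters of a STAT site, occurred for Psmb8 alone and in 7.01% of all. A match is a string of letters and was not tested as a binding site. Only these exact strings were sought, so that a window without a match may still hold a variant of the element. The shared runs of H2-K1, H2-D1 and H2-Q7 were not searched for variants of the interferon-stimulated response element. Its absence from these windows thus cannot be concluded.

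Levels were a gene's UMIs per 1000000 summed UMIs of a class in a library (CPM), for classes of at least 5 cells. A count of 0 allows up to 3 UMIs in that sum. Intervals over UMIs cover counting error only. Summed over the 10 genes, the highest levels of the tumour-bearing brain were in the myeloid cells. Mean levels were 26353 ± 6572 CPM in microglia (SD, n = 6 libraries), 22972 ± 4745 in macrophages (n = 6), 19709 ± 4977 in lymphocytes (n = 5), 13237 ± 6017 in tumour cells (n = 6), 13195 ± 2284 in endothelial cells (n = 5), 9677 ± 6737 in oligodendrocytes (n = 6), 6877 ± 4703 in oligodendrocyte precursors (n = 6), 3871 ± 3412 in astrocytes (n = 5) and 842 ± 399 in neurons (n = 3). Neighbours in this order overlapped in their ranges. Dendritic cells held 30718 and 24589.5 CPM in the 2 libraries with at least 5 of them (KO early and KO intermediate).

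Within a library, where the classes shared depth and handling, the order was steadier. The summed level was higher in microglia than in tumour cells in 6 of 6 libraries (median fold 1.95) and in macrophages than in tumour cells in 6 of 6 (median fold 1.51). Oligodendrocytes were below tumour cells in 6 of 6, by a median of -0.44 on the log2 scale with a pseudocount of 10 CPM, and astrocytes in 5 of 5, by -2.22. Microglia and macrophages did not keep one order, since macrophages were higher in 2 of 6. By gene, macrophages exceeded tumour cells in 6 of 6 libraries for the chains H2-K1, H2-D1, B2m, H2-T23 and H2-Q7. For the transporter and the immunoproteasome the order turned in most libraries, with macrophages higher in 2 of 6 for Tap1, 1 of 6 for Tap2, 2 of 6 for Psmb8 and 1 of 6 for Psmb9. Tapbp, which links the heavy chain to the transporter, was higher in macrophages in 5 of 6. Classes came from the same counts, so that these differences are a description without a test.

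**Figure D1:**
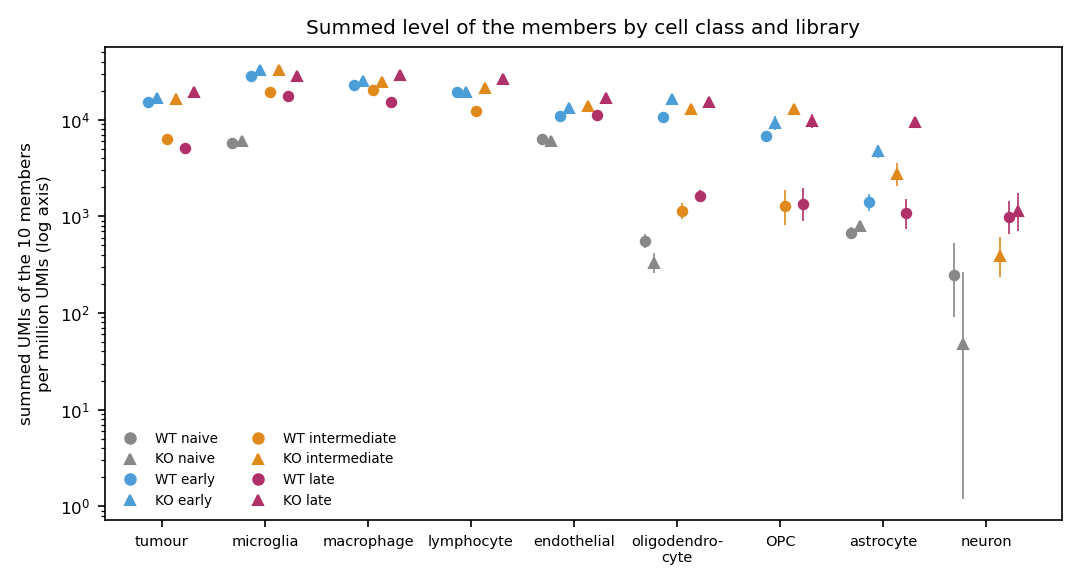
CPM (log axis) of the 10 genes summed, by cell class (x axis), 1 point per library with its exact Poisson 95% interval. Naive oligodendrocytes lie at 328 and 554 CPM and those of the KO tumour-bearing libraries at 12793 to 16479 CPM. The WT intermediate and WT late points are the lowest tumour-bearing points in tumour cells, microglia, macrophages and oligodendrocytes.

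In tumour cells all 10 genes were expressed in all 6 libraries, and the WT intermediate and WT late libraries were the lowest for each of them. B2m was at 6580.0, 3353 and 2818 CPM in the WT early, intermediate and late libraries and at 8202, 7749.7 and 8918 CPM in the KO libraries of these stages. H2-K1, a classical heavy chain, was at 2832, 994 and 703 CPM in WT and 2815, 3077 and 4104 CPM in KO hosts. The 3 KO libraries and the WT early library formed the upper group for both genes, and the other 2 WT libraries lay below it without overlap.

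The other classical chain, H2-D1, followed the same order (2516, 907 and 737 CPM in WT, 2601, 2542 and 2934 CPM in KO). H2-Q7, a non-classical heavy chain, was at 228, 47.8 and 34.4 CPM in WT early, intermediate and late and at 217, 314 and 396 CPM in KO. H2-T23, which encodes Qa-1, the ligand of the inhibitory receptor NKG2A, was at 417, 69.8 and 55.5 CPM in WT and 272, 275 and 233 CPM in KO and was the one heavy chain with its highest value in the WT early library. The immunoproteasome subunit Psmb9 was at 598, 161 and 81.8 CPM in WT and 662, 581 and 599.6 CPM in KO. Tap1, Tap2, Tapbp and Psmb8 showed the same split, with Tap1 at 100.4 and 49.8 CPM in WT intermediate and late against 225 to 293 CPM in the other 4 libraries. Tumour cells held 56.7% of all UMIs of the 10 genes in the WT early library and 76.9% to 94.3% in the other 5. These shares depend on the UMIs of all genes that a class held. In the WT early library these were 2946976 in 281 tumour cells and 574154 in 107 macrophages, so the shares do not measure level. Of the last 500 bases of the transcripts, 38.1% of the 50-base words of H2-T23, 9.53% of those of H2-D1 and 6.21% of those of H2-Q7 (shared with the related H2-Q5 and H2-Q10) also occurred in transcripts of other genes, most of them unrelated by name, so that reads there may not be assigned to 1 gene, whereas B2m, Tap1, Tap2, Tapbp, Psmb8 and Psmb9 had none and H2-K1 0.443%.

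**Figure D2:**
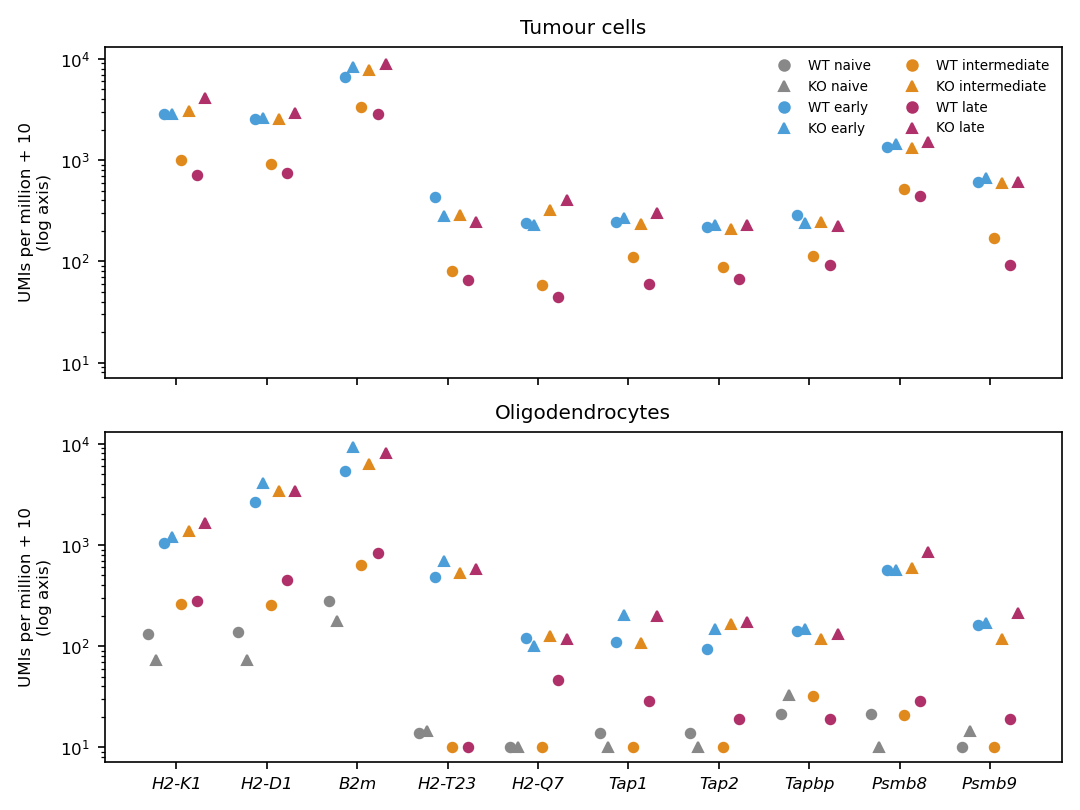
CPM (log axis, with 10 added) of each of the 10 genes in tumour cells and in oligodendrocytes, 1 point per library. In both panels the points of the WT intermediate and WT late libraries are the lowest of the tumour-bearing ones, and in oligodendrocytes they come close to the naive points.

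Microglia of tumour-bearing brain held more of 8 of the 10 genes than naive microglia. H2-K1 was at 450.5 and 469 CPM in the WT and KO naive libraries and at 4608, 2302 and 2159 CPM in the WT and 4523, 4912 and 4704 CPM in the KO tumour-bearing libraries (early, intermediate, late). H2-Q7 was near 0 in naive microglia (10.1 and 6.84 CPM, 4 UMIs in all) and was at 689.9, 173 and 101 CPM in WT and 1043, 706 and 555 CPM in KO tumour-bearing libraries. The WT intermediate values rest on 5 microglia. All 6 tumour-bearing libraries lay above both naive libraries for H2-K1, H2-D1, B2m, H2-Q7, Psmb8 and Psmb9. B2m was at 3988 and 4318 CPM in naive microglia against 11180 to 18150.3 CPM.

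Tested with edgeR's quasi-likelihood test on library sums with genotype as a covariate and Benjamini-Hochberg adjustment over 3263 genes, 8 of the 10 genes rose, where 9.68% of all tested genes rose and 6.71% fell. The log2 fold changes (± SE) were 6.05 ± 0.85 for H2-Q7 (adjusted p = 0.000122), 3.07 ± 0.44 for H2-K1 (0.000134), 3.0 ± 0.44 for H2-D1 (0.00018) and 1.84 ± 0.31 for B2m (0.000705). Among the processing genes Tap1 rose by 2.82 ± 0.55 (adjusted p = 0.00185), Psmb9 by 2.19 ± 0.40 (0.0013) and Psmb8 by 1.56 ± 0.39 (0.0106), and H2-T23 rose by 1.55 ± 0.50 (0.0393). Tap2 (log2 fold change 1.42, adjusted p = 0.0566) and Tapbp (0.99, 0.0626) did not pass. The median over the 10 genes was 2.02, against 0.00 over all tested. Without the WT intermediate and WT late libraries 10 of 10 passed, and without the KO naive library, which leaves 1 naive library, 2 did. The macrophage marker list summed to 527-547 CPM in naive and 2005-5995 CPM in tumour-bearing microglia, and the tumour list to 0-5.06 and 92.2-921 CPM, and the part of either in the rise was not tested.

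Oligodendrocytes had the lowest summed naive level of the 4 classes tested (441 ± 160 CPM, SD, n = 2 libraries). Their median fold change was larger than that of microglia, the only other class in which all of the genes were tested. B2m was at 271 and 169 CPM in the WT and KO naive libraries, at 5348, 617 and 819 CPM in the WT early, intermediate and late libraries, and at 9289, 6343 and 8165 CPM in the KO libraries. H2-D1 was at 128 and 63.8 CPM in naive, 2638, 242 and 442 CPM in WT and 4049, 3411 and 3369 CPM in KO tumour-bearing libraries. All 6 tumour-bearing libraries exceeded both naive ones for H2-K1, H2-D1 and B2m, but the WT intermediate and WT late libraries lay far nearer to the naive libraries than to the other 4. Psmb8 was at 11.3 and 0 CPM in naive, 560.0, 11.0 and 18.4 CPM in WT and 556, 586 and 842 CPM in KO tumour-bearing libraries. H2-T23 was at 3.77 and 4.56 CPM in naive, 474, 0 and 0 CPM in WT and 680.5, 518 and 571 CPM in KO libraries, so that for these 2 genes the 2 low WT libraries lay beside the naive ones.

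In the same test over 2678 genes, 9 of the 10 genes rose, where 1.61% of all tested genes rose and 0.597% fell. The log2 fold changes were 4.11 ± 0.82 for B2m (adjusted p = 0.0132), 4.27 ± 0.84 for H2-D1 (0.0118), 3.15 ± 0.59 for H2-K1 (0.00947), 6.25 ± 1.37 for H2-T23 (0.0237) and 5.89 ± 1.25 for Psmb8 (0.0194). H2-Q7 (0.0317), Tap1 (0.0352), Psmb9 (0.0382) and Tap2 (0.0461) passed with the adjusted p in brackets, and Tapbp, with a log2 fold change of 2.44, did not (0.152). H2-Q7 had no UMI in naive oligodendrocytes, so that its summed level was at least 13.7-fold higher in tumour-bearing ones, taking 3 counts over both naive libraries as the floor. Psmb8 had 3 naive UMIs (ratio of pooled levels 72.0, counting interval 24.4 to 351) and H2-T23 had 2 (93.8, 25.7 to 779), whereas B2m had 109 (22.2, 18.3 to 27.1). The median over the 10 genes was 5.00 on the log2 scale, against 0.03 over all tested. Of the fold changes given here, those of H2-T23 and Psmb8, with few naive UMIs, were the largest.

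The calls in oligodendrocytes rested on few libraries. Without the KO naive library none of the 10 passed, without KO late 3 did and without KO early 5 did, and without both low WT libraries 10 did, with B2m at 4.98. The tumour marker list summed to 3.77-22.8 CPM in naive and 44.9-374 CPM in tumour-bearing oligodendrocytes, against 2675-6238 CPM in tumour cells. The lymphocyte list went from 0 to 0-145 CPM, the macrophage list from 50.1-328 to 11.0-249.5 CPM and the microglia list from 884-890 to 244-635 CPM. The oligodendrocyte list itself stayed at 88474-117924 CPM. Neurons of the same libraries were few. For the 10 genes they were at 389.7 CPM in KO intermediate (19 UMIs in 5 cells) and 1147 CPM in KO late (21 UMIs in 8 cells). Oligodendrocytes were at 12793 and 15379 CPM there. In WT late the values were 987 CPM in neurons (27 UMIs in 5 cells) and 1629 CPM in oligodendrocytes. The part of transcripts from other cells in the rise was not tested.

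**Figure D3:**
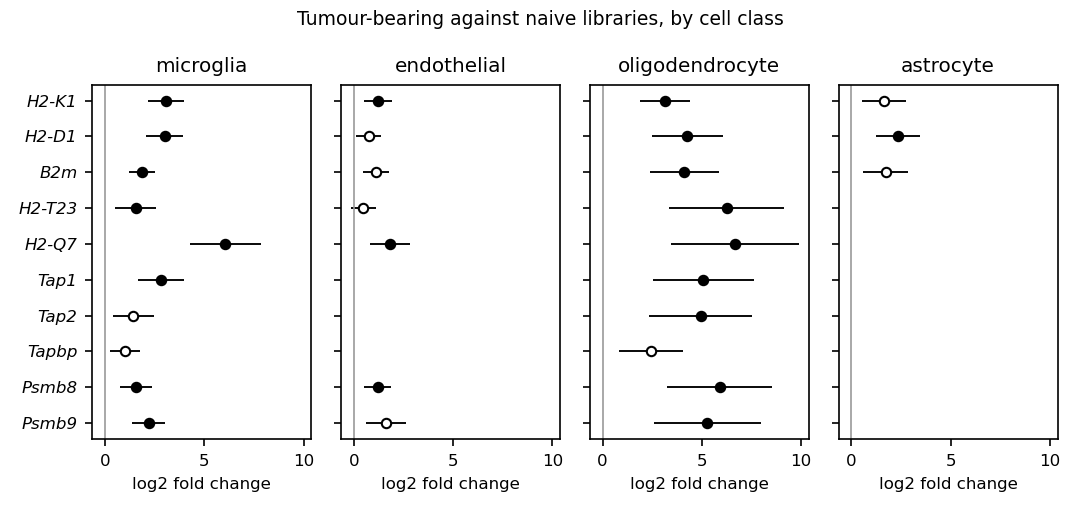
Log2 fold change of tumour-bearing over naive libraries with its 95% interval for each gene in 4 cell classes (edgeR), filled where the adjusted p is below 0.05. Microglia have 8 filled points, oligodendrocytes 9, endothelial cells 3 and astrocytes 1, and all fold changes shown as called are above 0.

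Endothelial cells held the summed 10 genes at 6203 ± 187 CPM in naive brain (SD, n = 2), and 3 genes rose with the tumour. H2-K1 was at 913 and 858 CPM in naive endothelial cells and at 1603 and 2014 CPM in WT early and late and 1779.6, 2515 and 2951 CPM in KO tumour-bearing libraries, all 5 of which exceeded the naive ones. The WT intermediate library had 3 endothelial cells and was left out of the fit. H2-Q7 was at 70.8 and 49.4 CPM in naive cells, 211 and 34.1 CPM in WT and 288, 209.6 and 334 CPM in KO, where the WT late library (9 cells) lay below both naive ones. Of the 7 genes that passed the count filter 3 rose, where 4.14% of 1450 tested genes did: H2-K1 by 1.22 ± 0.33 (adjusted p = 0.0331), H2-Q7 by 1.81 ± 0.48 (0.0302) and Psmb8 by 1.19 ± 0.33 (0.0378). B2m (1.11, 0.0533), Psmb9 (1.61, 0.0701), H2-D1 (0.75, 0.216) and H2-T23 (0.48, 0.486) did not pass. The count was 0 without the KO naive library, 1 without WT early, 5 without WT late, and 0 with doublets removed. The microglia marker list was at 1750-1907 CPM in naive and 2445-3857 CPM in tumour-bearing endothelial cells, and its part was not tested.

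In astrocytes 3 of the 10 genes could be tested and 1 rose. H2-D1 was at 82.2 and 74.1 CPM in naive astrocytes, 212 and 130.2 CPM in WT early and late and 708, 579 and 1202 CPM in KO early, intermediate and late (log2 fold change 2.35 ± 0.51, adjusted p = 0.0405), where 0.649% of 616 tested genes rose. B2m (355 and 400.4 CPM naive, 664 and 553 CPM WT, 2183, 1158 and 5058 CPM KO) and H2-K1 did not pass (adjusted p = 0.187 and 0.203). All 3 passed without both low WT libraries, and the count was 0 without KO naive, 3 without WT naive, WT late or KO late and 4 without KO intermediate. H2-Q7 had 0 UMIs in naive astrocytes and 7 in tumour-bearing ones, at least 8.37-fold more. The KO late library was the highest for H2-K1, H2-D1 and B2m, with 11 cells.

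Whether the classes responded differently was tested as the interaction of class and tumour, within libraries, against microglia. Endothelial cells responded less than microglia for 5 of 10 genes, where 3.39% of 4515 genes did so and 1.82% responded more. The differences in log2 fold change, with adjusted p in brackets, were -4.47 (3.63e-07) for H2-Q7, -2.47 (3.08e-06) for H2-D1, -2.08 (0.00013) for H2-K1, -1.48 (0.0376) for Tapbp and -1.42 (0.0186) for H2-T23. Oligodendrocytes responded more for 3 of 10, where 0.741% of 4051 genes did so: H2-T23 by 4.46 (0.000175), Psmb8 by 4.11 (0.000217) and Tap2 by 3.53 (0.0425). H2-T23 and Psmb8 were near 0 in naive oligodendrocytes, with 3 UMIs of Psmb8 against 110 in naive microglia. For both genes the WT intermediate and WT late oligodendrocytes lay beside the naive ones. For H2-K1 the difference between oligodendrocytes and microglia was -0.02 with a 95% interval of -2.79 to 2.76. Astrocytes responded less for H2-K1 alone, -1.86 (0.0371), where 2.72% of 3273 genes did so. Leaving out 1 library gave 2 to 5 genes for endothelial cells (2 without either naive library, 3 without KO early), 1 to 4 for oligodendrocytes (1 without either naive library) and 0 or 1 for astrocytes, where the call was lost without any 1 of WT naive, KO naive, WT early, KO early, KO intermediate or WT late. DESeq2 called 3, 0 and 0.

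Naive libraries held 2 macrophages and 1 lymphocyte, so that these classes had no naive counterpart. In macrophages H2-K1 was at 3579, 3190.0 and 1973 CPM in WT early, intermediate and late and at 3706, 3886 and 5154 CPM in KO libraries. B2m was at 12857, 11783 and 8964 CPM in WT and 13162, 13965 and 16158 CPM in KO. The WT late library was the lowest for both, and the WT intermediate library the next, though the gap to the other libraries was smaller than in tumour cells. Summed over the 10 genes, lymphocytes held 19376 and 12339 CPM in WT early and intermediate (7 cells) and 19487, 21103 and 26240.1 CPM in KO early, intermediate and late. Oligodendrocyte precursors, known as the dividing progenitors of oligodendrocytes, held 6839, 1273 and 1351 CPM in WT and 9343, 12764 and 9691 CPM in KO libraries, the same split as in oligodendrocytes.

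Late against early stage, with genotype as a covariate, gave no call for the 10 genes in tumour cells, microglia, macrophages or oligodendrocytes, by edgeR or by DESeq2. At an unadjusted p below 0.05 the counts were 4, 2, 1 and 3 genes, where 7.37, 4.76, 5.16 and 3.16% of all tested genes passed, and the share of all tested genes called lower was 0, 0.0523, 0 and 0%. The medians of the log2 fold change were -1.03 in tumour cells, -0.47 in microglia, -0.59 in macrophages and -1.40 in oligodendrocytes, with 10, 9, 10 and 10 of the 10 genes negative. The medians average over 2 hosts, whose values were not alike. In tumour cells the summed level of WT late over WT early was -1.59 on the log2 scale (binomial 95% interval -1.61 to -1.57, counting error of 2 libraries only) and that of KO late over KO early was 0.20 (0.18 to 0.21). In oligodendrocytes the values were -2.71 (-2.93 to -2.49) and -0.10 (-0.21 to 0.01), in macrophages -0.59 and 0.24, and in microglia -0.69 and -0.21. Each is 1 library against 1 library and has no replicate check. Without KO late, 4 of 10 genes passed in oligodendrocytes and 2 in tumour cells, and without KO early 6 and 1.

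KO against WT host, with stage as a covariate over the 6 tumour-bearing libraries, also gave no call in tumour cells, microglia or macrophages. All 10 genes were higher in tumour cells of KO hosts (median log2 fold change 1.22) and all 10 had an unadjusted p below 0.05, where 6.54% of all tested genes did, but the adjusted p ran from 0.473 for B2m (1.10 ± 0.28) to 0.758 for H2-T23, and 0% of 14327 genes was called. DESeq2 called 4 of the 10. In oligodendrocytes B2m rose by 2.47 ± 0.45 (adjusted p = 0.0339), where 0.134% of 2246 genes were called higher and 0.089% lower. H2-D1 (2.34 ± 0.47, 0.0617) did not pass, and 8 of the 10 had an unadjusted p below 0.05 against 4.27% of all. DESeq2 gave no call there, nor did the fits with Leiden clusters, with doublets removed or on total UMIs without TMM scaling. In macrophages 5 and in microglia 4 genes had an unadjusted p below 0.05, with medians of 0.66 and 0.73, against 4.48% and 4.45% of all, and DESeq2 called none in either. The share of all tested genes called higher was 0.0964% in macrophages (0.0643% lower) and 0% in microglia.

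By stage, 1 KO library was set against 1 WT library. In tumour cells the summed level in KO over WT was 1.11-fold at the early, 2.61-fold at the intermediate and 3.84-fold at the late stage. In oligodendrocytes it was 1.55-fold, 11.2-fold and 9.44-fold, and in naive oligodendrocytes -0.76 on the log2 scale. In microglia the log2 ratios were 0.07 naive (-0.04 to 0.18), 0.21, 0.77 and 0.69. Leaving out the WT early or the KO early library leaves 1 early library, which its own stage term fits exactly. Either refit thus takes the host difference from the same intermediate and late libraries, among them both low WT libraries. The refits are no separate checks of a host difference. Without the WT intermediate and WT late libraries the hosts can be compared at the early stage alone, where the log2 ratio in tumour cells was 0.15. The KO and WT libraries of a stage come from 1 mouse each, so that genotype and mouse cannot be told apart.

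The make-up of the proteasome was measured as the share of UMIs of an immunoproteasome subunit in the sum with the subunit it replaces. In tumour cells the Psmb9 share was 70.3%, 33.9% and 20.7% in WT early, intermediate and late, with binomial 95% intervals of 68.4% to 72.1%, 32.4% to 35.4% and 19.1% to 22.4%, and 66.1%, 66.4% and 66.5% in KO libraries. These shares split as the levels did. The Psmb8 share moved far less, at 91.4%, 86.7% and 82.7% in WT and 89.8%, 92.5% and 94.0% in KO. The share of Psmb10, the third inducible subunit, did not separate the intermediate libraries of the hosts, at 85.5%, 83.2% and 73.7% in WT and 88.7%, 83.4% and 87.4% in KO. In macrophages the Psmb9 share was 50.8%, 28.9% and 18.6% in WT and 53.0%, 50.7% and 59.7% in KO. Each share compares 2 genes counted at their 3′ ends, so that its size is not a ratio of proteins, and it is read between libraries only.

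In oligodendrocytes the inducible subunits held few UMIs of each pair in naive brain and in the 2 low WT libraries, and many in the other 4. The Psmb8 share was 14.3% and 0% in the WT and KO naive libraries, 93.1%, 16.7% and 11.1% in WT early, intermediate and late, and 73.1%, 84.5% and 96.9% in KO libraries. The Psmb9 share was 0% and 1.69% in naive libraries, 37.9%, 0% and 2.44% in WT and 30.4%, 23.4% and 45.5% in KO. The WT intermediate value rests on 6 UMIs for the first pair and 22 for the second. The 3 values of 0% allow shares of up to 12.3% (Psmb8, KO naive), 5.87% (Psmb9, WT naive) and 15.4% (Psmb9, WT intermediate) by the binomial 95% interval. In microglia the Psmb8 share was already 82.7% and 84.8% in naive brain, and the Psmb9 share went from 32.4% and 24.6% to between 33.3% and 54.8%. The lowest Psmb9 share of tumour-bearing microglia, in WT intermediate, rests on 9 UMIs (binomial 95% interval 7.49% to 70.1%). In WT late the share was 36.7% (19.9% to 56.1%), against an interval of 17.4% to 50.5% in WT naive. These 2 libraries were thus not set apart from WT naive beyond counting error.

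**Figure D4:**
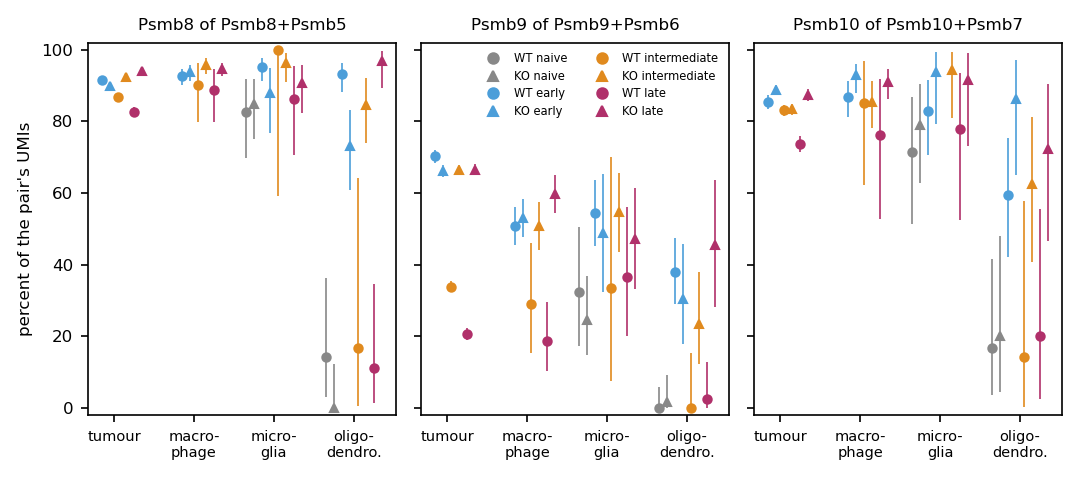
Percent of the UMIs of each pair held by the inducible subunit (Psmb8 with Psmb5, Psmb9 with Psmb6, Psmb10 with Psmb7), 1 point per library with its binomial 95% interval, in 4 cell classes. The Psmb9 share of tumour cells lies at 20.7% in WT late and 33.9% in WT intermediate and between 66.1% and 70.3% in the other 4 libraries.

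The share of cells with a UMI was compared after thinning each cell to 1000 UMIs. In oligodendrocytes at least 1 UMI of H2-K1, H2-D1 or B2m was found in 16.5% and 26.6% of WT and KO naive cells, in 75.9%, 29.2% and 52.9% of WT early, intermediate and late cells, and in 93.1%, 93.5% and 90.9% of KO cells. Unthinned, these shares were 39.2%, 45.3%, 92.8%, 62.5%, 61.8%, 96.6%, 96.8% and 95.5% in the same order. Neurons, a class known for little class I, gave 1 of 13 naive cells (7.69%) and 9 of 26 tumour-bearing cells (34.6%) at the same thinning, with median depths of 2517 and 3514.5 UMIs. The tumour-bearing neurons were pooled over 6 libraries. In WT intermediate, the classical chains were at 129 CPM in neurons (2 UMIs in 2 cells, 95% interval 15.6 to 466 CPM) and at 1113 CPM in oligodendrocytes (906 to 1352 CPM). In tumour cells H2-K1 alone was found in 93.2%, 53.5% and 49.2% of WT early, intermediate and late cells and in 91.8%, 90.6% and 95.4% of KO cells. The 1000 barcodes of lowest rank in each table, with a median of 252 to 521 UMIs, held the 10 genes at 1733 and 1489 CPM in naive libraries, 10680.5, 5553 and 4817 CPM in WT and 17052, 15317 and 16561 CPM in KO libraries. Their part in the levels of other classes was not tested.

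Ifng and interferon-regulated factors differed along the same split of the libraries. Ifng, made by T and natural killer cells, had 83, 0 and 0 UMIs over all classes of the WT early, intermediate and late libraries and 126, 11 and 43 in the KO libraries, and 0 and 1 in naive libraries. These are raw counts, from libraries with 69, 7 and 4 lymphocytes in WT and 32, 41 and 40 in KO. The counts of 0 thus do not show a lower level per lymphocyte. Irf1, an interferon-activated transcription factor, was at 249, 94.2 and 54.4 CPM in tumour cells of WT hosts and at 267, 216 and 271 CPM in those of KO hosts. Nlrc5, the transactivator of class I genes, was in the same cells at 35.7, 13.9 and 10.9 CPM in WT and 37.1, 29.7 and 29.3 CPM in KO. Whether these genes or the lymphocyte share had a part in the levels of the 10 genes was not tested.

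Of 58 other genes of the pathway, 55 were in the tables: other heavy chains, class I-like molecules, loading and trimming factors, the third immunoproteasome subunit and activators, constitutive counterparts, cytosolic peptidases, regulators and interferon receptors. In tumour-bearing microglia 6 of the 32 tested rose and 1 fell, where 9.68% of all tested genes rose and 6.71% fell. Among those that rose, H2-Q6 (3.60 ± 0.51, adjusted p = 0.000127) and H2-Q4 (3.37 ± 0.74, 0.00443) are heavy chains and Irf1 (2.66 ± 0.49, 0.00137) is a transcription factor, and the interferon-gamma receptor chain Ifngr1 fell by 1.86 ± 0.38 on the log2 scale (0.00263). In oligodendrocytes 4 of 18 rose (1.61% of all tested genes), among them the proteasome activator Psme1 (3.26 ± 0.75, 0.0317), the heavy chain H2-T22 (3.66 ± 0.87, 0.0352) and Psmb10 (2.90 ± 0.72, 0.047). In endothelial cells 1 of 15 rose, near the 4.14% of all tested genes, the chaperone Hspa5 (1.36 ± 0.34, 0.0227) and in astrocytes 0 of 6 passed, by edgeR adjusted or unadjusted. In endothelial cells the response of H2-Q4 (difference -2.96, adjusted p = 0.00264) was below that in microglia. None of the pathway genes passed for stage or host.

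The genes whose level followed the 10 most closely were sought over the 40 sums of a class in a library with at least 20 cells (10 classes, 8019 genes, log2 of CPM + 10). Outside the pathway list the highest Pearson r with the mean of the 10 were those of Gbp7 (0.93) and Psme2b (0.91), followed by Parp14 (0.90), Zbp1 (0.90), Rnf213 (0.87), Ifi27l2a (0.86), Gbp2 (0.86), Gbp3 (0.86), Oas1a (0.86) and Isg15 (0.85). Gbp2, Gbp3, Gbp7, Isg15, Oas1a, Zbp1 and Ifi27l2a are known as interferon-induced genes. In the pathway list Psmb10 reached 0.93. Each of the 10 genes had an r of 0.89 (Tap2) to 0.98 (H2-K1) with the mean of the other 9. The sums share libraries, depth and cell classes, so that these values are a description without a test.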

How the data were processed

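The deposited tables held UMI counts per gene and barcode, 3000 barcodes in each of 8 libraries, 1 library per group. The authors made them from Drop-seq 3′ libraries of dissociated, myelin-depleted brain; the submitters' processing notes name bcl2fastq 2.0, STAR (version not given in the sources used here) and GRCm38/mm10, and the methods name the Drop-seq pipeline. After the study's filters, the top 1000 barcodes of each library, genes in at least 30 cells (18473 genes) and cells with at least 1000 genes were kept. Log-normalised counts were reduced by PCA and t-SNE (Rtsne 0.17, perplexity 50) and clustered with HDBSCAN (scikit-learn 1.9.0, minimum 19 cells), and clusters were named from fixed markers. The 38 cells of 1 unnamed cluster were in no named class, and 15 endothelial cells with more mural than endothelial marker UMIs were left out in an alternative only. Scrublet marked 1 to 11 cells per library. In 5 libraries this was under 0.5% of cells, so the cells with the top 5% of scores were removed there instead, as an alternative only.

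UMI counts were summed per library and class (at least 5 cells) and tested with edgeR 4.0.16 (R 4.3.3; quasi-likelihood test, TMM, filterByExpr, Benjamini-Hochberg over all genes tested, threshold 0.05), since cells are not replicates. Standard errors were taken from the fold change and the F statistic. DESeq2 1.42.0 was an alternative, as were other clusterings, cell filters, scalings, covariates and leaving out libraries. The edgeR fits were tested on simulated counts. Nothing says that the libraries replicate a condition beyond genotype and stage, so p-values measure a spread between the libraries of each fit, made from 1 or 2 mice each. For tumour-bearing against naive, stage had no term, so that this spread mixes stage with mouse. For stage and host it is the departure from additive terms of genotype and stage. The 10 genes, the pathway list and the markers were chosen with earlier results of these data known. Genes named are all 10, up to 5 other pathway genes per comparison with the smallest adjusted p among those past the threshold, and the 10 genes outside both lists with the highest r. H2-Q8, H2-Q9 and H2-T9 were not analysed here, and some single-gene values are not reported here. Proteins and the upstream window of Tap2 were not used here.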

Additional observations from a re-analysis of the deposited data

Results flagged for a closer look

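In 5 of 77 groups of 4 to 6 libraries, 1 library lay far from the others by Dixon's test, where chance gives about 1 group in 20. In endothelial cells, the KO late library had the highest Tap2 level (250.6 CPM, the next library 144 CPM) and the WT late library the lowest Tapbp level (34.1 CPM, the next 112 CPM). In astrocytes, KO late had the highest H2-T23 level, 249 CPM against 59.0 CPM in the next library. In lymphocytes, WT intermediate had the lowest H2-Q7 level (110.6 CPM, the next 929 CPM) and the lowest Tap2 level (22.1 CPM, the next 159 CPM). The libraries named held 15, 9, 11 and 7 cells of the class, and the counts were small. H2-T23 in astrocytes had 6 UMIs in KO late and 2 in KO early. In WT intermediate lymphocytes H2-Q7 had 5 UMIs and Tap2 had 1, below the 66.3 CPM that 3 UMIs would give. The WT late endothelial sum held 29211 UMIs of all genes, so that its Tapbp level is also a very small count.

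The response to the tumour differed between classes by the interaction test of edgeR for 9 pairs of gene and class. Relative to microglia, the log2 fold change in endothelial cells differed by -2.08 for H2-K1, -2.47 for H2-D1, -1.42 for H2-T23, -4.47 for H2-Q7 and -1.48 for Tapbp, and in astrocytes by -1.86 for H2-K1. In oligodendrocytes it was higher by 4.46 for H2-T23, 3.53 for Tap2 and 4.11 for Psmb8.

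The hosts moved in opposite directions from the early to the late stage in tumour cells, where the summed level of the 10 genes changed by -1.59 in WT and 0.20 in KO on the log2 scale, and in macrophages, where it changed by -0.59 in WT and 0.24 in KO. Each value compares 2 libraries, and the difference between hosts was not tested.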

How the results depend on the processing

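Under the alternatives run, the sign of the fold change for tumour-bearing against naive was kept in 190 of 190 values in microglia, 140 of 140 in endothelial cells, 189 of 189 in oligodendrocytes and 57 of 57 in astrocytes. For KO against WT it was kept in 170 of 170 values in tumour cells, 169 of 170 in microglia, 170 of 170 in macrophages and 169 of 169 in oligodendrocytes, and for late against early in 178 of 180, 169 of 180, 174 of 180 and 173 of 179. For the class differences against microglia it was kept in 180 of 180 values in endothelial cells, 169 of 180 in oligodendrocytes and 166 of 180 in astrocytes. No called gene changed sign.

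Counts of called genes moved more. Leaving out 1 library gave 2 to 10 genes in microglia (8 with all libraries), 0 to 5 in endothelial cells (3), 0 to 9 in oligodendrocytes (9) and 0 to 4 in astrocytes (1) for tumour-bearing against naive. For late against early it gave 0 to 2 in tumour cells, 0 or 1 in microglia and macrophages and 0 to 6 in oligodendrocytes, where none was called with all libraries. For KO against WT it gave 0 to 8 in tumour cells, 0 to 3 in microglia, 0 to 2 in macrophages and 1 to 8 in oligodendrocytes. For the class differences it gave 2 to 5 in endothelial cells, 1 to 4 in oligodendrocytes and 0 to 1 in astrocytes. Where 1 naive library was left out, the lone one was assumed to vary like the tumour-bearing libraries. For KO against WT, a stage left with 1 library was fitted exactly by its own stage term. Such refits compare the hosts over the other stages only.

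For tumour-bearing against naive, endothelial cells had 1 called gene with Leiden clusters, 0 without doublets, 5 with cells of at least 500 genes, 5 with at least 10 cells per sum, 6 by DESeq2, 1 without the count filter, 5 without the genotype covariate and 5 without both low WT libraries. Astrocytes had 2 without doublets, 2 without cells of mixed markers, 4 at 500 genes, 4 at 10 cells, 2 without the count filter and 3 without both low WT libraries. For late against early, microglia had 1 at 10 cells and oligodendrocytes 3 without the count filter. For KO against WT, tumour cells had 4 by DESeq2, macrophages 1 without the count filter, and oligodendrocytes 0 with Leiden clusters, 0 without doublets, 0 by DESeq2, 0 without TMM and 6 without the count filter. For the class differences, whose alternatives were all chosen after seeing the data, endothelial cells had 3 with clusters made without these genes, 3 with Leiden clusters, 3 without doublets, 3 by DESeq2 and 3 without TMM, oligodendrocytes 0 by DESeq2 and 6 without both low WT libraries, and astrocytes 0 without doublets, 0 at 500 genes, 0 at 10 cells, 0 by DESeq2, 0 without the count filter and 0 without both low WT libraries. The cause of these changes was not tested. No paired analysis was possible because each group has 1 library and no replicate numbers to pair by, beyond the terms for stage, host and library that the fits already held. Counts near 0 in naive oligodendrocytes and astrocytes and the 3 to 9 cells of some classes limit what these libraries can show.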
